A study of Mus musculus with 4 samples.

Results

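The genes described here are the trefoil peptides Tff1, Tff2 and Tff3, the secreted gel-forming mucins Muc5ac, Muc5b and Muc6, and the membrane mucins Muc1, Muc4, Muc13 and Muc20 of the mouse. They were picked by gene symbol, with earlier results of these data known but with no measured value in the rule, and all 10 had a row among the 20377 genes of the deposited table. They are set in insulin reporter-positive cells that were made from gallbladder epithelium, a tissue that coats itself with mucus. The question was which of these secretory genes such cells carried, at what level, and how far 4 libraries of the same kind differed in them.

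RNA sequencing was done on 1 group, rGBC2, with replicates 1 to 4. The cells were primary gallbladder cells of mice aged 8 weeks on the C57BL/6 background that carry B6.Cg-Tg(Ins1-EGFP)1Hara/J, also called MIP-GFP, in which an Ins1 promoter drives a green fluorescent protein. After expansion in culture they were given Pdx1, Ngn3, Mafa and PAX6, which are transcription factors of endocrine pancreas, and were treated over 10 days with compounds whose names the labels leave out. Cells positive for the reporter were collected by fluorescence-activated cell sorting into the RNA reagent, and total RNA was turned into libraries with the TruSeq RNA v2 kit. The sort reads the Ins1 promoter, so it selects cells by the reporter and not by mucus content. No unreprogrammed or native cells were analysed here, and levels were therefore set against a fixed level of 1 RPKM (a read count divided by transcript length and by library size) and against all genes of the same libraries. The labels do not say whether the libraries came from separate animals or cultures, so every p-value measures the spread between these 4 samples, which may be technical.

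Trefoil peptides are small secreted proteins folded around a cysteine-rich trefoil domain. Mucous epithelia of the gut and its outgrowths release them together with mucins, and in the stomach and intestine they take part in the repair of the epithelial surface. Gel-forming mucins are very large glycoproteins that link into polymers and make up the mucus gel, whereas membrane mucins stay anchored in the apical cell surface as a glycan-covered barrier that also signals. In the stomach Tff1 goes with Muc5ac in surface cells and Tff2 with Muc6 in gland cells, and in the intestine Tff3 goes with Muc2 in goblet cells.

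The libraries held abundant trefoil transcripts, while transcripts of gel-forming mucins were at or near 0. Tff3 was among the most abundant transcripts of every library and Tff2 was high but uneven, while Muc5ac, Muc5b and Muc6 stayed at 0.19 RPKM or less in each library. The membrane mucins were split, with Muc1 and Muc13 between 15.1 and 72.0 RPKM and Muc4 and Muc20 at 0.57 RPKM or less. In a limma test of mean log2(RPKM + 1) against 1 RPKM, with Benjamini-Hochberg adjustment over 16919 genes, 4 of the 9 members tested lay above that level and 5 lay below it, and Tff1 was not tested because it is listed at 0 throughout. Of all genes tested, 65.0% lay above the level and 26.1% below it. The log2 levels given below are the mean of log2(RPKM + 1) minus its value at 1 RPKM. On that scale a gene at 0 has -1.0, the lowest possible value. In these bulk samples a lower number of cells carrying a transcript and a lower amount per cell cannot be told apart.

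**Figure D1:**
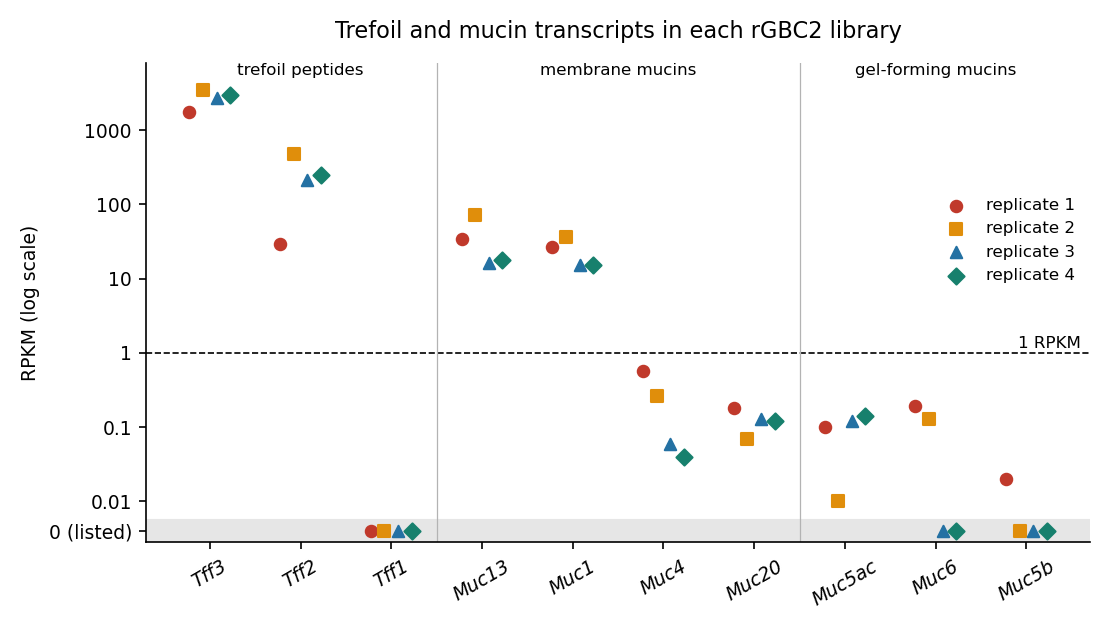
RPKM on a log scale of each of the 10 genes in each of the 4 rGBC2 libraries, 1 point a library, with values listed at 0 placed in the grey band and a dashed line at 1 RPKM. Tff3, Tff2, Muc13 and Muc1 lie above the line in all 4 libraries, and the other genes lie below it in all 4.

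Among the trefoil peptides, Tff3 was the gene with by far the most transcript. The coding sequence of its trefoil domain, codons 33 to 70, is shown with those of Tff2 and Tff1 because the domain is what the family shares, and the capitals mark the 6 cysteine codons of each domain, which a script found by their spacing. The sequences are read 5′ to 3′ on the sense strand from GENCODE transcripts of GRCm38, in which all 3 genes lie on chromosome 17.
Tff3 domain: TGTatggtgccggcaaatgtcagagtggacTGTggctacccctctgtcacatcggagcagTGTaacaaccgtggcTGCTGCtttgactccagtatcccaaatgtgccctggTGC
Tff2 first domain: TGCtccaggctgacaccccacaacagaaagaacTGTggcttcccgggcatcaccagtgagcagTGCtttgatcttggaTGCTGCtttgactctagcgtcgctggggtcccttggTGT
Tff2 second domain: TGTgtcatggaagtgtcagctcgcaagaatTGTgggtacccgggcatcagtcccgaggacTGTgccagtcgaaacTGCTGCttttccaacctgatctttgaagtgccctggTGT
Tff1 domain: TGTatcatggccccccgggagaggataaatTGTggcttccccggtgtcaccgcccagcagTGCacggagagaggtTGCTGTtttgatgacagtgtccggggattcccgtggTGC
Tff2 carries 2 such domains in 129 residues, whereas Tff3 has 1 in 81 residues and Tff1 has 1 in 87 residues. Outside the 6 domain cysteines Tff3 has a single further one in its whole coding sequence, counted with the signal peptide, which gives 7, while Tff1 has 8 and Tff2 has 14. The first domain of Tff2 shares 59.0% of its residues with that of Tff3, 23 of 39, and 46.2% with the second domain of Tff2 itself.

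Tff3, the trefoil peptide of intestinal goblet cells and of bile ducts, lies at chr17:31262251-31266556 on the minus strand of mm9 (NM_011575). Its values were 1776, 3473, 2717 and 2948 RPKM in replicates 1 to 4. Every library was high, replicate 1 the least so, and the mean was 2728 ± 709 RPKM (SD, n = 4). Among all 20377 genes it ranked 11, 8, 10 and 10 in the same order of libraries. That corresponds to 0.369%, 0.662%, 0.486% and 0.507% of the summed RPKM, on an estimated 21052 to 48288 reads a library. In the limma fit its log2 level lay 10.37 above that of 1 RPKM (SE 0.41, Benjamini-Hochberg adjusted p = 2.14e-06).

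Tff3 stood near the level of Ins2 and well above Ins1, the insulin genes of the mouse. The ratio of Tff3 to Ins2 was 1.63, 0.938, 0.706 and 0.695 in replicates 1 to 4. Only replicate 1, which had the least Ins2 at 1091 RPKM, held more Tff3 than Ins2 transcript per unit of length. The ratio of Tff3 to Ins1, the gene whose promoter drives the sorted reporter, was 16.6, 15.6, 5.65 and 5.63, higher in replicates 1 and 2. Against Krt7, a keratin of biliary epithelium, Tff3 stood at 3.81, 7.21, 3.39 and 3.74. Replicate 2 gave the highest of these ratios and the other libraries lay close together.

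Tff2, the trefoil peptide of gastric gland mucous cells, lies next to Tff3 at chr17:31278007-31281227 on the same strand (NM_009363), with 11450 bases between the genes. Its values were 29.1, 480 and 216 RPKM in replicates 1 to 3 and 249 RPKM in replicate 4. Replicate 1 stood far below the others and replicate 2 above them, so that the SD of 185 RPKM was 76.0% of the mean of 244 RPKM (n = 4). In rank Tff2 ran between 3769 in replicate 1 and 116 in replicate 2. Despite this spread its log2 level lay 6.39 above that of 1 RPKM in the limma fit (SE 0.65, adjusted p = 1.76e-04). In the deposited coordinates, which put Tff1 on chromosome 5, the next gene on the far side of Tff2 is Tmprss3. It is listed at 0 in every library, and Abcg1, on the far side of Tff3, averaged 15.98 ± 5.34 RPKM (SD, n = 4).

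The difference of Tff2 minus Tff3 on the log2(RPKM + 1) scale was -5.88, -2.85, -3.65 and -3.56 in replicates 1 to 4. Tff2 was thus the lower of the pair in 4 of 4 libraries, by a mean of -3.98 ± 1.31 (SD, n = 4), and the two-sided exact permutation test by sign flips gave p = 0.125, which is the smallest that 4 libraries can give (adjusted 0.167 over 8 differences). Tff3 was 61.0 times Tff2 in replicate 1, against 7.23, 12.6 and 11.8 times in the others. Some other transcripts were low in replicate 1 as well. Ins2 was 1091 RPKM there and 3704, 3851 and 4240 RPKM in replicates 2 to 4. Gcg, the glucagon gene and the closest to Tff2 over the libraries (below), was 95.7 RPKM there and 942, 612 and 818 RPKM in the others. Other markers of insulin-producing cells were divided. Iapp and Ins1 were also lowest in replicate 1, but Chga and Pcsk1 were lowest in replicate 2, where Tff2 was highest. Chga had 33.1, 23.7, 471 and 470 RPKM in replicates 1 to 4. Whether the proportion of hormone-positive cells has a part in the Tff2 spread was not tested.

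Tff2 had the largest SD of log2(RPKM + 1) of the trefoil genes, 1.72 over the 4 libraries. The genes whose centred values lay closest to it, by root mean square difference among 11966 genes with a mean of at least 1 RPKM, were Gcg at 0.297, Rab38 at 0.309 and Sdc2 at 0.355. Rab38, a small GTPase of lysosome-related organelles, had 2.18, 29.4, 13.4 and 15.0 RPKM in replicates 1 to 4. Sdc2, a cell-surface heparan sulphate proteoglycan, had 0.52, 44.9, 18.1 and 19.0 RPKM. All of these were lowest in replicate 1 and highest in replicate 2, and no gene came within 0.25 of Tff2. The points share their libraries and depth, and 4 of them fix a pattern only loosely.

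**Figure D2:**
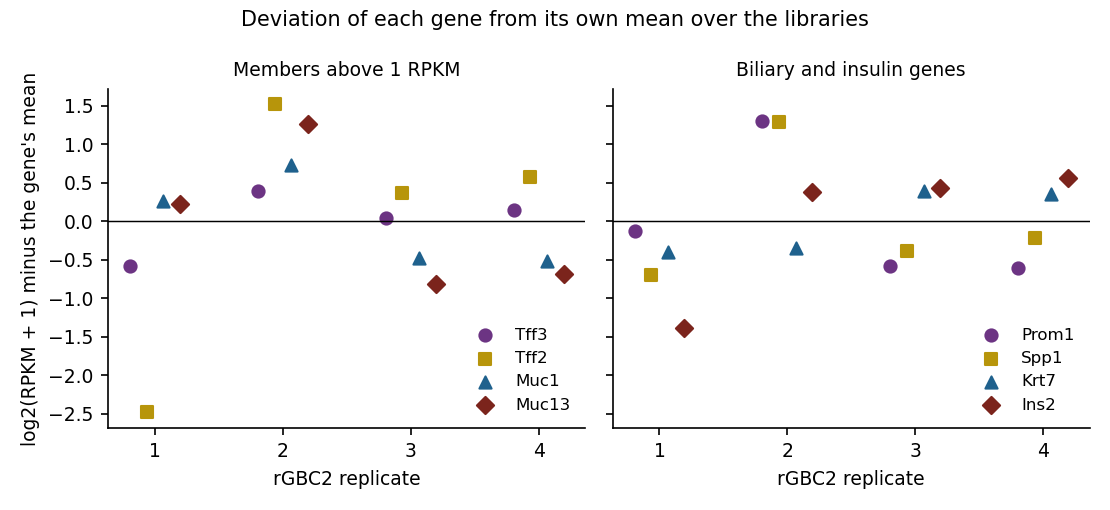
log2(RPKM + 1) in each rGBC2 library minus the mean of the same gene over the 4 libraries, for the members above 1 RPKM (left) and for biliary and insulin genes (right), 1 point a gene and library. Tff2 lies 2.48 below its mean in replicate 1 and 1.52 above it in replicate 2. Muc13 lies 1.26 above its mean in replicate 2, where Prom1 lies 1.30 above its own and Krt7 lies 0.35 below its own.

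Tff1, the trefoil peptide of gastric surface cells, is listed at 0 RPKM in all 4 libraries. The deposited table places its transcript (NM_009362) at chr5:143285577-143289234 of mm9, whereas RefSeq for GRCm38 has it on chromosome 17. The genes next to that place are Slc29a4, a nucleoside transporter with 11.8 ± 7.47 RPKM, and Tnrc18 with 10.5 ± 1.97 RPKM (SD, n = 4 each). Tff1 is 1 of 8 genes, among 19918 on full chromosomes that could be matched, whose chromosome differs between the table and that annotation. 2 of these 8 genes, Tff1 among them, are at 0 in every library, as are 3458 of all 20377 genes. At the length of its transcript a value of 0 allows up to 0.177, 0.192, 0.173 and 0.128 RPKM in replicates 1 to 4, which is 3 reads a library and covers counting error only. That limit holds for reads at the place where the table puts the gene, and whether reads of Tff1 elsewhere were counted was not tested.

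In a list of partners and proposed receptors of trefoil peptides, transcripts were mostly low. Fcgbp, to which Tff3 is bound, was counted in another list below and lay above 1 RPKM (limma adjusted p = 3.15e-06). The share that follows therefore depends on how the list was drawn. Of 9 genes for partners and proposed receptors, Gkn2 was listed at 0 and not tested. Of the 8 tested, 2 lay above 1 RPKM (25.0%, against 65.0% of all genes tested), 5 lay below and 1 was on neither side. F2rl1, a protease-activated receptor, averaged 20.4 ± 5.57 RPKM, and Cxcr7, a chemokine receptor, averaged 5.39 ± 1.68 RPKM (SD, n = 4 each). Both lay above 1 RPKM in limma, with adjusted p = 4.71e-06 for F2rl1 and 5.01e-04 for Cxcr7. Cxcr4, the related receptor proposed for Tff2, had 0.23 RPKM in replicate 1 and 0.12 RPKM in replicate 2 and is listed at 0 for the others. Dmbt1, a secreted scavenger protein that binds trefoil peptides, had 11.3, 0.41, 2.34 and 3.46 RPKM and was not placed on either side of the level (limma adjusted p = 0.104). Lingo2, proposed as a receptor for Tff3, had a single value above 0, which was 0.01 RPKM in replicate 2. Gkn2 encodes the gastric protein that pairs with Tff1, which is listed at 0 as well. Lingo3, proposed as a receptor for Tff2, was below the level with 0.688 ± 0.129 RPKM (SD, n = 4, limma adjusted p = 0.0127), a gene named here after its value was seen.

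The gel-forming mucins lie with Muc2 in 1 cluster on chromosome 7, which spans 239.0 kb of mm9 from Muc6 to Muc5b. Muc6, the mucin of gastric glands and, in humans, of gallbladder, lies at chr7:148819948-148841207 on the minus strand (NM_181729). Replicate 1 had 0.19 RPKM of it and replicate 2 had 0.13 RPKM, and both other libraries list it at 0. Muc5ac, the mucin of the gastric surface, lies at chr7:148974916-149005040 on the plus strand (NM_010844). Its values were 0.10, 0.01, 0.12 and 0.14 RPKM, on an estimated 20, 2, 24 and 38 reads over its 8256 bases. Muc5b, a main mucin of airways and, in humans, of gallbladder, lies at chr7:149024977-149058990 on the plus strand (NM_028801). It had 0.02 RPKM in replicate 1, an estimated 7 reads over 14964 bases, and was listed at 0 in the others.

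All 3 gel-forming members lay below 1 RPKM in limma, with adjusted p of 1.18e-05 for Muc6, 2.40e-06 for Muc5ac and 2.29e-07 for Muc5b. Their log2 levels relative to 1 RPKM were -0.89, -0.87 and -0.99 in the same order, near the -1.0 of a gene at 0. Because of the 1 added to each RPKM, such levels do not give the fold below 1 RPKM. The summed level of the 3 genes was 0.31, 0.14, 0.12 and 0.14 RPKM in replicates 1 to 4. The summed trefoil level was 1805, 3953, 2933 and 3197 RPKM in the same libraries. Because the mucin transcripts are long, 3 reads on Muc5b are worth only 0.00834, 0.00901, 0.00813 and 0.00603 RPKM, so a level of 1 RPKM in that gene would have stood on many reads. Muc6 minus Muc5ac had a mean of -0.02 ± 0.18 on the log2(RPKM + 1) scale (SD, n = 4), positive in replicates 1 and 2 and negative in replicates 3 and 4 (exact sign-flip permutation p = 0.750), so the order of the pair was not the same in all libraries and the mean turned to 0.03 or 0.04 without replicate 3 or replicate 4. Muc5b was lower than Muc5ac in 4 of 4 libraries, by a mean of -0.12 ± 0.08 (exact permutation p = 0.125, adjusted 0.167). In replicate 2 the difference was only -0.01, on 0.01 RPKM of Muc5ac. That is below the 0.0163 RPKM that 3 reads on Muc5ac are worth there.

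Genes at both ends of the cluster were well above it. Ap2a2, a subunit of the clathrin adaptor that ends 1037 bases from Muc6, averaged 63.2 ± 8.39 RPKM, and Tollip, an adaptor of Toll-like receptor signalling that lies 8499 bases from Muc5b, averaged 57.1 ± 12.5 RPKM (SD, n = 4 each). Muc2, the intestinal mucin that lies between Muc6 and Muc5ac, had 0.25, 0.18, 0.02 and 0.04 RPKM. It was below 1 RPKM in limma (adjusted p = 2.62e-05), so every mucin gene of the cluster was at 0.25 RPKM or less in all 4 libraries.

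**Figure D3:**
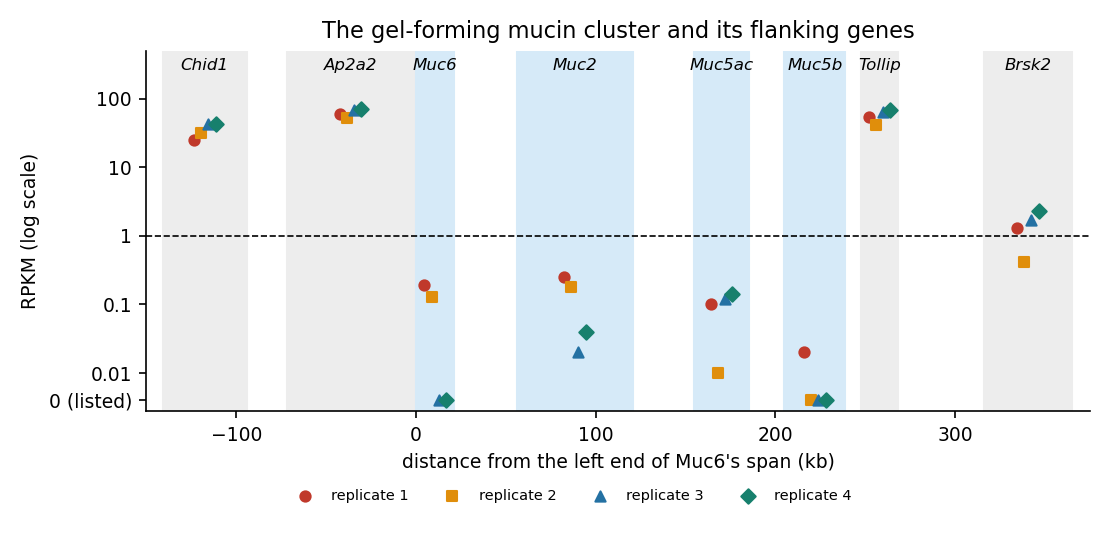
RPKM on a log scale of the genes along the gel-forming mucin cluster of mouse chromosome 7 and its flanks, against distance in kb from the left end of the Muc6 span, with shaded bands for gene spans (blue for mucins, grey for others), 1 point a library and a dashed line at 1 RPKM. The 4 mucin genes lie below the line in every library, and Ap2a2 and Tollip lie between 41.0 and 71.1 RPKM.

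Other mucins gave the same picture apart from 1 gene. Of 6 further mucin genes measured, 4 were tested, and of these only Cd164, a small sialomucin of endosomes and the cell surface, lay above 1 RPKM (25.0%, against 65.0% of all genes tested). It had 275, 275, 160 and 148 RPKM in replicates 1 to 4 (limma adjusted p = 7.28e-07), higher in replicates 1 and 2 than in the others. Emcn, an endothelial sialomucin, had 0.06 RPKM in replicate 4 and was listed at 0 in the others. Muc19 and Mucl1 were listed at 0 in every library.

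Among the membrane mucins, Muc13, a mucin of gut and biliary epithelium with epidermal growth factor-like domains, was the highest in 4 of 4 libraries. It lies at chr16:33794123-33820013 on the plus strand of mm9 (NM_010739) and had 34.7, 72.0, 16.4 and 18 RPKM in replicates 1 to 4. Replicate 2 was highest, and replicates 3 and 4 lay together below both of the others. The mean was 35.3 ± 25.8 RPKM (SD, n = 4), or 23.0 RPKM without replicate 2, and its log2 level lay 3.93 above that of 1 RPKM in limma (SE 0.37, adjusted p = 1.17e-04).

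Muc1, the membrane mucin of most glandular epithelia, whose cytoplasmic tail binds beta-catenin and Grb2, lies at chr3:89032974-89037291 on the plus strand (NM_013605). It had 26.4, 37.0, 15.3 and 15.1 RPKM, with the libraries in the same order as for Muc13 except that replicates 3 and 4 changed places. The mean was 23.4 ± 10.4 RPKM (SD, n = 4), and its log2 level lay 3.51 above that of 1 RPKM in limma (SE 0.24, adjusted p = 2.76e-05). Muc1 was lower than Muc13 in 4 of 4 libraries, by a mean of -0.42 ± 0.37 in log2(RPKM + 1) units (SD, n = 4, exact permutation p = 0.125, adjusted 0.167). The ratio of Muc13 to Muc1 was 1.32, 1.95, 1.07 and 1.20, so the gap was widest in replicate 2 and small in replicate 3.

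Muc1 and Muc13 were both lower in replicates 3 and 4 than in replicates 1 and 2. The share of all genes with such a split was not counted. Over all genes, estimated reads differed across this split by a chi-square of 249 to 348 per degree of freedom. The split therefore cannot be read as particular to these mucins. Other genes separated the same libraries, some in the same and some in the opposite direction. Eif2s3y, a gene of the Y chromosome, had 48.5 RPKM in replicate 1 and 44.7 RPKM in replicate 2 but is listed at 0 for both of the others. Chga, a granule protein of endocrine cells, had 33.1 RPKM in replicate 1 and 23.7 RPKM in replicate 2, where replicate 3 had 471 RPKM and replicate 4 had 470 RPKM. The labels give no sex and no batch, and the part of either in these levels was not tested.

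Muc13 had the largest SD of log2(RPKM + 1) of the mucins at or above 1 RPKM, 0.96 over the 4 libraries. The closest genes by root mean square difference of centred values were Kank4 at 0.052, Akr1b7 at 0.054 and Cyp3a13 at 0.071. Kank4, a protein that links the cytoskeleton to adhesions, had 1.38, 3.78, 0.16 and 0.16 RPKM in replicates 1 to 4. Akr1b7, an aldo-keto reductase, had 6.94, 16.8, 3.24 and 3.50 RPKM, and Cyp3a13, a cytochrome P450, had 2.07, 5.00, 0.63 and 0.59 RPKM. In all, 105 of 11966 genes lay within 0.25 of Muc13, and none lay so near to Tff2. The distance is not scaled to the SD, which was 1.72 for Tff2 and 0.96 for Muc13. These counts therefore cannot be compared between the genes. The ratio of Muc13 to Prom1, a membrane protein of apical protrusions and a biliary marker, was 0.0904, 0.0700, 0.0591 and 0.0663. That is in proportion a narrower range than that of Muc13 itself. The ratio of Muc13 to Krt7, another biliary marker, was 0.0745, 0.150, 0.0205 and 0.0228, in proportion a wider range than that of Muc13. Muc13 therefore did not follow the biliary markers as a set.

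The bases before the start sites of Muc1 and Muc13 are shown because these members were above 1 RPKM and took nearly the same order of libraries. Each run is the 250 bases upstream of a RefSeq start on GRCm38.p6, plus strand, 5′ to 3′, and capitals mark motif matches.
Muc1 at chr3:89228806-89229055: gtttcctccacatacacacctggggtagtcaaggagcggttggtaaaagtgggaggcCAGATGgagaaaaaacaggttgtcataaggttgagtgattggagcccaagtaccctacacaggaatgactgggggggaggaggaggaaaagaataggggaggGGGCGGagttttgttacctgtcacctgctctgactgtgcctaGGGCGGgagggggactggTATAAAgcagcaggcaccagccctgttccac
Muc13 at chr16:33793787-33794036: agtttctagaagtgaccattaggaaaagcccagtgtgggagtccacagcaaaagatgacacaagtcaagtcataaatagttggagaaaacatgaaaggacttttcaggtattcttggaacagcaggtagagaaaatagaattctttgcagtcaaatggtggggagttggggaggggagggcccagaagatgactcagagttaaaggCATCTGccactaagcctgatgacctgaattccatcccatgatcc
Both strands of the RefSeq promoters of 5 of the 10 members were searched for the TATA-box letters TATAAA, the GC-box letters GGGCGG, the forkhead motif TGTTTAC, the GATA-factor motif AGATAA, the E-box CAGATG, the homeodomain core TAATTA and the ETS motif AGGAAGT. Muc1 held TATAAA at -31, GGGCGG at -91 and -49, and CAGATG at -193, counted from the start site to the first base of the match. Muc13 held the E-box on the other strand, read as CATCTG, at -44, and its second RefSeq start held none of these motifs. No matches overlapped, and the E-box was the motif found in both of these members. TATAAA occurred in 12.4% of 32851 promoters of the same length, GGGCGG in 32.7% and CAGATG in 14.4%. AGATAA occurred in 3281 of them, TGTTTAC in 3.2%, TAATTA in 4.8% and AGGAAGT in 7.7%. The GC content was 54.8% for Muc1 and 44.8% for Muc13, against a median of 52.4% for all promoters. Among the members below 1 RPKM, Muc4 held TATAAA at -36, Muc6 held AGATAA at -194 and Muc20 held the forkhead motif on the other strand at -248. A match of letters is a description of the window and not a bound site.

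Muc4, a large membrane mucin that binds the receptor ErbB2, lies at chr16:32735972-32782476 on the plus strand of mm9 (NM_080457). It had 0.57, 0.26, 0.06 and 0.04 RPKM in replicates 1 to 4, an estimated 155, 65, 17 and 15 reads, and thus was higher in replicates 1 and 2 than in the others. The mean was 0.232 ± 0.246 RPKM (SD, n = 4), or 0.12 RPKM without replicate 1. Its log2 level was -0.72 relative to 1 RPKM in limma (SE 0.11, adjusted p = 0.00102). Muc1 exceeded Muc4 in 4 of 4 libraries by a mean of 4.23 ± 0.46 on the log2(RPKM + 1) scale (exact permutation p = 0.125, adjusted 0.167).

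Muc20, a membrane mucin that binds the receptor Met in human cells, lies at chr16:32777505-32797521 on the minus strand (NM_001145874). It had 0.18, 0.07, 0.13 and 0.12 RPKM, an estimated 16, 6, 12 and 15 reads, and showed no split of the libraries. Its log2 level was -0.83 relative to 1 RPKM in limma (SE 0.03, adjusted p = 1.62e-06). The spans of Muc4 and Muc20 overlap by 4972 bases on opposite strands, and the strand setting of the counting is not given in the sources used here, so reads in the overlap cannot be told apart. Muc4 minus Muc20 was 0.41, 0.24, -0.09 and -0.11, a mean of 0.11 ± 0.25 with no common direction (exact sign-flip permutation p = 0.500, adjusted 0.571). Tnk2, on the far side of Muc4, averaged 14.03 ± 3.005 RPKM, and 1700021K19Rik, on the far side of Muc20, averaged 27.4 ± 5.76 RPKM (SD, n = 4 each).

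The genes next to Muc1 and Muc13 had values above 1 RPKM in every library. On either side of Muc1, Thbs3 averaged 1.74 ± 0.858 RPKM at 2214 bases and Trim46 averaged 6.00 ± 1.33 RPKM at 807 bases. On either side of Muc13, Heg1 averaged 4.88 ± 2.37 RPKM and Itgb5, an integrin subunit, averaged 25.8 ± 4.91 RPKM (SD, n = 4 each). Muc1 was higher than both of its neighbours in all 4 libraries.

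Partners and sheddases of membrane mucins were all above the level. Of 11 genes, 11 lay above 1 RPKM (100.0%, against 65.0% of all genes tested). This share, too, depends on how the list was drawn. Ctnnb1, the beta-catenin that binds the Muc1 tail, averaged 722 ± 118 RPKM. Mmp14, a membrane protease that releases Muc1, averaged 50.1 ± 9.94 RPKM, and Grb2, an adaptor, averaged 46.2 ± 7.38 RPKM (SD, n = 4 each). Lgals3, a galectin that binds Muc1 glycans, had 28.1, 51.5, 19.9 and 18.9 RPKM and was highest in replicate 2, as Muc1 was. Erbb2, the receptor bound by Muc4, averaged 11.1 ± 1.78 RPKM (limma adjusted p = 9.10e-06). Met, the receptor bound by Muc20, had 17.9, 17.8, 9.6 and 7.75 RPKM (limma adjusted p = 8.31e-05). Icam1, an adhesion molecule that binds Muc1, was the lowest of the list at 5.13 ± 3.22 RPKM. The receptors were thus above 1 RPKM where the mucins Muc4 and Muc20 were below it.

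Mucin folding and packing genes were mixed. Of 18 genes, 9 lay above 1 RPKM, against 65.0% of all genes tested, 6 lay below and 3 were on neither side. Those above included Vamp8, a vesicle fusion protein of secretory granules, at 262 ± 38.2 RPKM, and Stxbp2, a syntaxin-binding protein of exocytosis, at 74.7 ± 15.3 RPKM (SD, n = 4 each). Fcgbp, the mucus protein to which Tff3 is bound by a disulphide bridge, had 100, 54.6, 142 and 133 RPKM (limma adjusted p = 3.15e-06). It was lowest in replicate 2, where Tff3 was highest, and the ratio of Tff3 to Fcgbp was 17.7, 63.6, 19.2 and 22.1. Agr2, a disulphide isomerase needed for Muc2 in the mouse intestine, had 0.08 RPKM in replicate 1 and 0.37 RPKM in replicate 2 and is listed at 0 for the others (limma adjusted p = 1.38e-04, below). Agr3, its paralogue, had 0.08 RPKM in replicate 1 and was listed at 0 elsewhere.

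Enzymes of mucin-type O-glycosylation, the sugar coat that mucins carry, were above the level in about the share of all genes. Of 29 genes, 1 was listed at 0 and not tested. Of the 28 tested, 19 lay above 1 RPKM (67.9%, against 65.0% of all genes tested), 6 lay below and 3 were on neither side. The highest were B3gnt3, which extends core chains, at 120 ± 15.8 RPKM and Galnt2, which starts chains on serine or threonine, at 63.4 ± 6.71 RPKM (SD, n = 4 each). C1galt1, the core 1 synthase, had 49.7, 53.2, 25.7 and 20.4 RPKM, and its chaperone C1galt1c1 had 33.3, 61.9, 30.4 and 30.8 RPKM. Galnt3, another starter enzyme, averaged 6.61 ± 4.07 RPKM (limma adjusted p = 0.00280). St6galnac1, a sialyltransferase of goblet cells, averaged 0.0750 ± 0.0412 RPKM and lay below (limma adjusted p = 9.03e-07). A4gnt, which makes the sugar cap of Muc6 that Tff2 binds, was listed at 0 in every library, beside Muc6 at 0.19 RPKM or less.

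Transcription factors of mucous and foregut epithelium were in part present. Of 20 genes, 14 lay above 1 RPKM (70.0%, against 65.0% of all genes tested), 3 lay below and 3 were on neither side. Ehf, an epithelial ETS factor, had 95.5, 91.1, 31.5 and 26.3 RPKM, higher in replicates 1 and 2 as Muc1 and Muc13 were. Stat3, a cytokine-activated factor, averaged 60.9 ± 10.8 RPKM, and Elf3, an epithelial ETS factor, averaged 38.8 ± 5.14 RPKM (SD, n = 4 each). Both went the other way from Ehf and were higher in replicates 3 and 4. Stat3 had 55.69, 48.35, 68.03 and 71.67 RPKM in replicates 1 to 4, and Elf3 had 34.75, 33.96, 42.64 and 43.77 RPKM. Spdef, the factor that drives goblet cell maturation, averaged 0.0550 ± 0.0332 RPKM and lay below (limma adjusted p = 5.25e-07). Foxa3, a forkhead factor of endoderm, had 2.18, 0.70, 1.96 and 1.49 RPKM and was not placed on either side (limma adjusted p = 0.128). Sox2, a foregut factor, and Cdx1, an intestinal one, each had 0.02 RPKM in replicate 1 and were listed at 0 in the others.

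**Figure D4:**
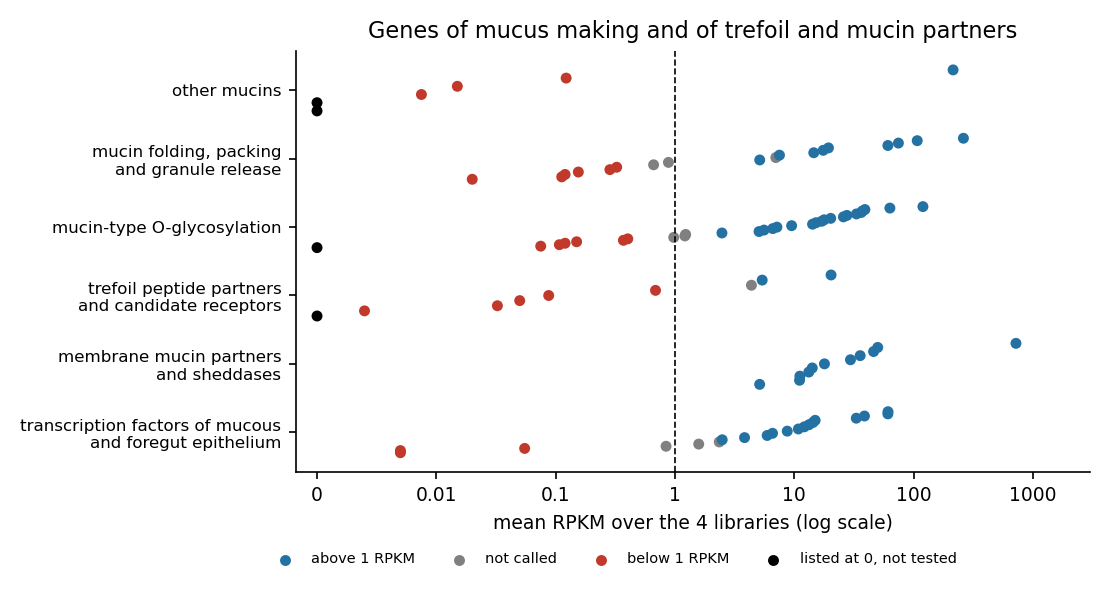
Mean RPKM over the 4 rGBC2 libraries on a log scale for each gene of 6 lists, 1 point a gene, coloured by the limma call against 1 RPKM (dashed line), with genes listed at 0 at the left edge. All 11 partners and sheddases of membrane mucins lie to the right of the line. Of the 9 genes listed as trefoil partners and candidate receptors, 5 were called below it.

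Markers of the cell types that could bring trefoil or mucin transcripts were summed per library. Of 10 markers of gallbladder and biliary epithelium, 9 lay above 1 RPKM, and their sum was 1972 to 4105 RPKM. Of 5 markers of insulin-producing cells 4 did, with sums of 3306 to 10440 RPKM. Of 5 markers of intestinal goblet cells only Fcgbp did, Retnlb was listed at 0, and their sum was 56.5 to 142 RPKM, of which Fcgbp alone gave 54.6 to 142 RPKM. Of 7 stomach markers only Atp4a, a proton pump subunit, lay above 1 RPKM (16.7% of those tested), and Gkn2 was listed at 0. The sum was 19.7 to 99.98 RPKM, of which Atp4a alone gave 18.5 to 99.8 RPKM. Atp4b, the other subunit of that pump, was at 0.16 RPKM or less. Airway, leukocyte and endothelial markers each summed to at most 0.31 RPKM a library, fibroblast markers to at most 4.99 RPKM and pancreatic acinar markers to at most 6.47 RPKM. The part of any of these cells in the trefoil levels was not tested.

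The depth of the libraries, estimated from the steps between low values of olfactory receptor genes, came to 24.05, 22.25, 24.65 and 33.23 M reads in replicates 1 to 4, since the deposited values hold no read totals. Estimated reads of replicates 3 and 4 differed by a chi-square of 13.5 per degree of freedom, beyond sampling noise, and every other pair by 141 to 348, so these libraries were much the most alike and were kept as separate samples. Gapdh, which every cell uses, is itself listed at 0.04 RPKM or less in 3 libraries and 0.20 RPKM in replicate 1, so a 0 in this table can be a failed estimate.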

How the data were processed

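The authors deposited 1 table of RPKM values per gene, rounded to 2 decimals. The build is mm9 and the tools named are Bowtie and CASAVA 1.8.2, per the submitters' processing notes. Which program counted the reads, with which strand setting, and how it treated multiply mapped reads is not given in the sources used here. The table also holds 6 per-sample columns that match no sample of the series, and they were not used. Starts were converted to 1-based positions.

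Levels were tested with limma 3.58.1 in R 4.3.3 (moderated variances with trend, two-sided) as mean log2(RPKM + 1) against 1 RPKM. Adjustment followed Benjamini-Hochberg over the 16919 genes not at 0 everywhere, with a threshold of 0.05. The 3458 genes at 0 in all libraries were not tested. log2(RPKM + 1) compresses differences between low genes. 8 differences between members within a library used an exact sign-flip permutation test, whose p with 4 libraries cannot go below 0.125. Scripts were checked on simulated data.

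Depth was fitted from 993 olfactory receptor genes spanning under 1100 bases, using 15 to 34 low values a library taken as whole reads within 0.0051 RPKM. The fit rests on those same values. Estimated reads used transcript lengths of another build, GRCm38, matched by RefSeq identifier for 19993 genes, and that build also gave the chromosome check and the sequences. Intervals and floors cover counting error only.

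All members were named. In each list the 3 highest and 2 lowest genes by mean RPKM were named, with 12 further genes whatever their values, the genes next to each member, and the 3 genes most like the most variable trefoil and mucin gene. Members and lists were chosen with earlier results of these data known. Muc3 and Muc16 had no row in the data used here. Genes at 0 in any library are given library by library, with no mean and SD.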

Additional observations from a re-analysis of the deposited data

Results flagged for a closer look

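The 55 items examined for 1 library standing apart were single genes and the 8 differences between members. Of these items 8, all of them genes, had a gap above Dixon's critical value for 4 libraries. The gap is that between the extreme library and its nearest neighbour, as a share of the range. Chance alone gives this in about 1 in 20 items, and values near 0 reach it easily. Muc5b had a share of 1.0, with 0.02 RPKM in replicate 1 and 0 in the others. Agr3, Cdx1 and Sox2 also had a share of 1.0 each, through replicate 1 alone at 0.08, 0.02 and 0.02 RPKM. Emcn had a share of 1.0 through 0.06 RPKM in replicate 4, and Lingo2 had 1.0 through 0.01 RPKM in replicate 2. At levels above 1 RPKM the genes were C1galt1c1, with a share of 0.908 and 61.9 RPKM in replicate 2 against 30.4 to 33.3 RPKM in the others, and Mmp14, with a share of 0.857 and 64.9 RPKM in replicate 2 against 43.5 to 46.6 RPKM in the others.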

How the results depend on the processing

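No paired analysis was possible because the series has 1 group. Over 14 other settings, 639 of 649 values of levels and differences kept their direction and call, among them all 123 levels of the 9 members tested, and 137 of 140 counts of genes stayed within 1.5 times the reported count. The members above 1 RPKM numbered 4 under every setting. With only genes of mean 0.1 RPKM or more, 2 members and 1889 of 14414 genes lay below 1 RPKM, since Muc5ac, Muc5b and Muc6 are then not tested, and with all 20377 genes tested 7777 lay below. Muc6 minus Muc5ac turned positive without replicate 3 (0.03) or replicate 4 (0.04), and with replicates 3 and 4 averaged as 1 (0.03), a setting chosen after seeing the data. The cause was not tested. Foxa3 turned to -0.26 when compared with 2 RPKM, by construction. Dmbt1 and Foxa3 moved above the level compared with 0.5 RPKM, scaled to TPM, or without replicate 2. Leaving out 1 library gave means of -0.08 to 0.04 for Muc6 minus Muc5ac and 10720 to 10786 genes above and 4264 to 4451 below. Scaling to TPM moved the median log2 level by 0.86 and median-ratio scaling by -0.01. RPKM holds no read totals, so depth limits the low genes only as estimated.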

Other observations

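Some genes of mucus making, chosen here after their values were seen, differed between libraries in patterns not yet described. Clca3, a secreted protein of goblet cell mucus, had 25.2, 1.87, 0.29 and 0.68 RPKM in replicates 1 to 4, and Creb3l1, a stress-activated transcription factor of secretory cells, had 15.7, 7.19, 3.55 and 3.61 RPKM. Both were highest in replicate 1. Among the enzymes that start O-glycan chains, Galnt14 had 7.58, 11.2, 41.2 and 43.4 RPKM and was higher in replicates 3 and 4, whereas Galnt6 had 16.7, 0.87, 10.2 and 10.3 RPKM and was lowest in replicate 2. Atp4a, the catalytic subunit of the gastric proton pump, had 18.5, 23.3, 97.1 and 99.8 RPKM.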
